A study of Mus musculus with 32 samples.

Results

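The frontal cortex of 12 mice inoculated with human gut microbiota was compared with that of 12 mice inoculated with macaque (Macaca mulatta) gut microbiota. These are 24 of the 32 mice of the series, chosen by the donor species in the labels. The other 8 mice received squirrel monkey (Saimiri boliviensis) microbiota. They entered the fit to share its estimate of the spread, and at some genes they are set beside the other groups. The tissue was the infralimbic and prelimbic cortex, medial frontal areas that take part in the control of emotion and of learned behaviour. All 3 groups consist of inoculated mice, and no mouse without inoculation or with mouse microbiota entered the comparison. The labels give no strain, sex, age or time after inoculation, and nothing that ties a mouse to a litter or cage. The p-values below therefore measure the spread between these mice.

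The gut microbiota reach the brain through metabolites in the blood, immune signals and the vagus nerve. In mice raised without microbes, changes in cortical myelin, microglia and synaptic genes are known. A neuron spends much of its energy on protein synthesis, on the respiratory chain that supplies ATP, and on motor proteins that carry cargo along axons and dendrites. The genes of these processes are described first, and then those of the nucleus, the synapse and the other cell types of the cortex.

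Libraries held 1204598 to 2089308 counts per mouse in the human group (median 1657174) and 1035036 to 1673882 in the macaque group (median 1503734). Levels are given as CPM, the share of a gene in the library's counts after TMM scaling. Human mice made up batches A (4 mice) and B (8 mice), and macaque mice batches E (5 mice) and F (7 mice), so each batch held 1 donor species. The library names place the human mice in plate columns 1 and 2 and the macaque mice in 4 and 5. In every result below, donor species cannot be told apart from batch or plate position. Between batches given the same donor's microbiota, A differed from B at 3 of 12651 genes (0.0237%), and E from F at 0 genes. At an unadjusted p under 0.05 the counts were 1473 for A against B and 399 for E against F, beside 2918 for human against macaque (edgeR in each case). With limma voom 4 genes passed for A against B and 0 for E against F. The 3 genes were Fscn1, Ap2a1 and Eif5a, all lower in A. These comparisons, of 4 against 8 and 5 against 7 mice, have less power than that between donors, so the counts are not like for like. The squirrel monkey batches, C and D, were not compared over all genes. They lay apart at Rps20 and Rps26, as given below.

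In human microbiota mice ribosomal protein genes were the gene list with the largest share of higher members. Motor and microtubule genes and large ubiquitin ligases were the lists with the largest shares of lower members. The lists were chosen with earlier results of these data known, so their ranking is descriptive and not a test. Of 12651 genes tested, 1013 passed an adjusted p of 0.05 (8.01%), 565 of them higher (4.47%) and 448 lower (3.54%) in human microbiota mice. The counts of list members below are to be read beside these shares over all genes. With library totals as the only scaling, the split was 673 higher and 321 lower. Higher genes had a median log2 fold change of 0.52 and lower genes of -0.29. At least 2-fold differences were found at 68 higher and 3 lower genes. Both human batch means lay above both macaque batch means at 564 of the 565 higher genes (23.9% of all genes) and below them at 448 of the 448 lower genes (25.1% of all genes). All 12 human values lay above all 12 macaque values at 19 genes (0.15% of those tested) and below them at 6 (0.0474%). The use of strand in counting is not stated, and 43.8% of tested genes overlap an annotated gene on the opposite strand, so that their values are uncertain. Named genes that do so with a named gene and are not marked where they appear are Adamts4, Aldoa, Arid4b, Ash1l, Cox6c, Gapdh, Herc1, Htra1, Map2k1, Mrpl33, Nell2, P2ry12, Pcsk1n, Ppfia2, Psip1, Syn2, Taok1, Tlk1, Trpc5 and Tuba4a.

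**Figure D1:**
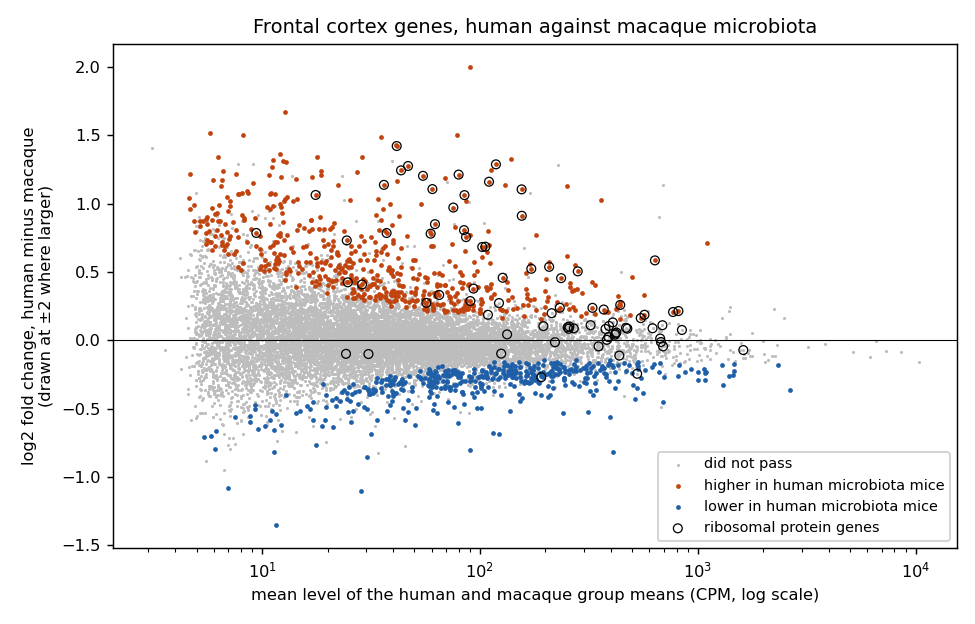
Each point is 1 of 12651 genes, with the mean of the 2 group means in CPM on a logarithmic horizontal axis and the log2 fold change, human minus macaque, on the vertical axis. The 565 higher genes are orange, the 448 lower genes blue, genes that did not pass grey, and ribosomal protein genes are ringed; 1 gene, Syn1, lies beyond the axis and is drawn at its edge.

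Ribosomal protein genes encode the protein parts of the cytosolic ribosome. Of 78 tested, 43 were higher and 0 lower in human microbiota mice, with a median log2 fold change of 0.23 beside -0.00 over all genes. The large subunit had 26 of 46 higher (median 0.25) and the small subunit 17 of 32 (median 0.21). The members differed by level. Of the 39 members of lower level (9.40 to 195.6 CPM), 31 were higher with a median of 0.75, and of the 39 of higher level (207.9 to 1619 CPM), 12 were higher with a median of 0.09. The summed level of all 78 genes was 20633 to 25085 CPM in human mice (median 22784) and 18077 to 23180 CPM in macaque mice (median 20612), so that the sums overlapped. Human replicates 8, 11 and 12 had the highest human sums, at 25085, 24974 and 24524 CPM. The same mice had the lowest human levels of Rps20 (87.5, 85.4 and 97.4 CPM) and of Rps6 (44.1, 45.8 and 42.7 CPM). Such members thus did not move with the sum among human mice. The largest changes were those of Rps16 (1.42 ± 0.17 SE), Rpl3 (1.29 ± 0.15) and Rps6 (1.24 ± 0.14).

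Messenger RNAs of ribosomal proteins are known to begin with a run of pyrimidines, the 5′ terminal oligopyrimidine tract, through which mTOR signalling sets their translation. The letters CTCTTT were looked for on the gene's own strand from 50 bases before to 50 bases after the annotated start, in RefSeq sequences of build GRCm38.p6. They were present at 19 of the 58 ribosomal protein genes with a sequence (32.8%), 14 of 35 that were higher and 5 of 23 that did not pass. Over all 9846 tested genes with a sequence, 303 held them (3.08%). Among the 284 of these that are no ribosomal protein genes, 11 were higher and 11 lower (3.87% each). Start sequences of 5 higher members are shown because they differ in where these letters stand. The match begins at the annotated start at Rpl28 and Rps6, 5 bases after it at Rps26, and at offsets of -3 at Rps9 and -20 at Rpl5, the last wholly before the start. A match is thus not by itself a terminal tract. Each sequence runs 25 bases before to 25 bases from the annotated start, with the match in capitals. The windows are chr10:128626482-128626531 (minus strand) for Rps26, chr7:4792940-4792989 (plus) for Rpl28, chr4:86857343-86857392 (minus) for Rps6, chr7:3704016-3704065 (plus) for Rps9 and chr5:107900503-107900552 (plus) for Rpl5.
Rps26: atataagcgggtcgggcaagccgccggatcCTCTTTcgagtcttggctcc
Rpl28: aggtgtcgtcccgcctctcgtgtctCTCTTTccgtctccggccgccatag
Rps6: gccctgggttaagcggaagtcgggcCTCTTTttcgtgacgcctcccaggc
Rps9: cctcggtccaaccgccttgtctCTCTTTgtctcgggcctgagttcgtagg
Rpl5: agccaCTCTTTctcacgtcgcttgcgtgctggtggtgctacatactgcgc

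Rps20, a protein of the small subunit, had 85.4 CPM in the lowest human mouse, 119 at the median and 137 in the highest, against 45.1, 53.1 and 70.1 CPM in macaque mice. The lowest human mouse lay above the highest macaque mouse, and the log2 fold change was 1.06 ± 0.11 SE (edgeR quasi-likelihood test, adjusted p = 4.91e-08). Its batch means were 127.1 (A) and 108.7 CPM (B) in human mice and 51.15 (E) and 57.83 CPM (F) in macaque mice. Batches within the human and within the macaque group differed by less than these groups did. The squirrel monkey batches lay further apart, at 105.2 (C) and 67.46 CPM (D). Rps26, of the same subunit, ranged over 112 to 144 CPM in human mice (median 128) and 64.2 to 99.1 CPM in macaque mice (median 77.1), again without overlap (0.68 ± 0.09 SE, adjusted p = 7.05e-07). Rpsa, a small subunit protein that is also known as a laminin receptor, had 124, 206 and 269 CPM in the lowest, median and highest human mouse and 87.9, 109 and 126 CPM in the macaque mice, with a narrow overlap (0.91 ± 0.10 SE, adjusted p = 9.63e-08). These 3 genes have no near-identical copy of their 3′ end and no gene on the opposite strand. All 12 human mice lay above the macaque median at each of them.

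Values of single ribosomal genes with processed pseudogenes can be shared with those copies. With a near-identical 3′ copy elsewhere in the genome, 25 of 45 members were higher (median log2 fold change 0.26), and without one 18 of 33 (median 0.20). Of the 26 members with neither such a copy nor a gene on the opposite strand, 15 were higher, with a median of 0.20. Rps16, Rpl3, Rps6 and Rplp1 have copies. Rpl28, Rpl3 and Rpl5 overlap Ube2s, Syngr1 and Fam69a. Rps6, whose phosphorylation is a common readout of mTOR activity, had 42.7 to 85.9 CPM in human mice and 17.9 to 32 CPM in macaque mice, without overlap. Rplp1, of the stalk that recruits elongation factors, ranged at a higher level over 628 to 884 CPM in human and 461 to 567 CPM in macaque mice (0.58 ± 0.06 SE). In the 8 squirrel monkey mice, Rps20 averaged 86.3 ± 29.7 CPM (SD) and Rps26 105.7 ± 26.9 CPM. Neither passed between human and squirrel monkey mice (log2 fold change 0.42 ± 0.12 SE, adjusted p = 0.162, and 0.26 ± 0.09 SE, adjusted p = 0.287), which does not show that they were alike. Against macaque mice, squirrel monkey mice were higher at both (0.64 ± 0.13 SE, adjusted p = 0.00884, and 0.42 ± 0.10 SE, adjusted p = 0.0254), and their summed ribosomal level had a median of 22936 CPM. The squirrel monkey batches C and D (4 mice each) were unlike. Rps20 had 77.7 to 141 CPM in C and 57.0 to 76.2 CPM in D, and Rps26 94.5 to 155 CPM in C and 75.3 to 105 CPM in D.

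**Figure D2:**
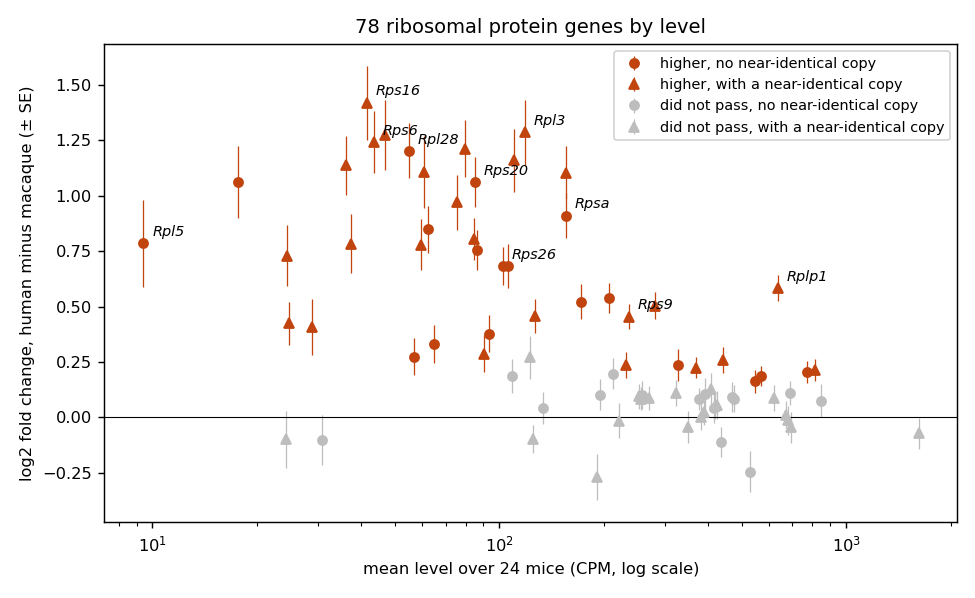
Each of 78 ribosomal protein genes is placed by its mean level over the 24 mice in CPM (logarithmic horizontal axis) and its log2 fold change, human minus macaque, with its SE. The 43 higher genes are orange and the others grey, triangles have a near-identical 3′ copy, and the fold changes are larger in the 39 genes of lower level (median 0.75) than in the other 39 (median 0.09).

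Factors that work on the ribosome changed in both directions. Of 40 initiation and elongation factors, 8 were higher (20%) and 4 lower (10%), with a median log2 fold change of 0.03. Eef2, which moves the ribosome along the messenger, had 318 to 431 CPM in human mice (median 382) and 252 to 314 CPM in macaque mice (median 278), and the groups did not overlap (0.43 ± 0.05 SE, adjusted p = 6.70e-07). Eef1a2, the form of the tRNA-delivering factor found in neurons and muscle, rose by 0.77 ± 0.11 (133 to 300 CPM in human and 104 to 171 CPM in macaque mice). Eif4a1, the helicase of initiation, rose by 0.42 ± 0.06, and Eef1g, a subunit of the exchange factor, by 0.43 ± 0.07. Without macaque batch E the list had 5 higher and 0 lower members. The ribosome of the mitochondrion had 2 higher and 1 lower of 59 proteins (median 0.05), close to the background. Mrpl33 had 86.1 to 103 CPM in human and 69.5 to 89.9 CPM in macaque mice (0.26 ± 0.05), and Mrps33 fell (-0.31 ± 0.07). Mrpl33 did not pass without batch E, nor did Mrps33 without batch A or F.

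Nuclear genes of oxidative phosphorylation that passed were all higher in human microbiota mice. They numbered 5 of 36 in complex I (13.9%), 2 of 27 in complexes II to IV (7.41%) and 4 of 18 in ATP synthase (22.2%). Over all genes 4.47% were higher. The list medians were 0.08, 0.01 and 0.03. Ndufb4, an accessory subunit of complex I, had 30.5 to 78.6 CPM in human mice (median 64) and 12.7 to 35 CPM in macaque mice (median 27.1), and the ranges overlapped only at their ends (1.16 ± 0.16 SE, adjusted p = 2.81e-06). Ndufa7 had the smaller difference without overlap, with 165 to 199 CPM in human and 114 to 162 CPM in macaque mice (0.34 ± 0.06). Ndufs5 (0.58 ± 0.10) and Ndufa12 (0.50 ± 0.09) are further accessory subunits. Atp5g1, a gene for the membrane ring of ATP synthase, had 164 to 280 CPM in human and 111 to 164 CPM in macaque mice (0.56 ± 0.09), and Atp5l rose by 0.71 ± 0.12. The cytochrome oxidase subunit Cox6c rose by 0.40 ± 0.07 (340 to 424 against 250 to 350 CPM). Most subunits of these complexes did not pass. In glycolysis 1 of 19 genes was higher, Gapdh (0.33 ± 0.08), and 1 lower, Aldoa, with 1147 to 1607 CPM in human and 1340 to 1937 CPM in macaque mice (-0.22 ± 0.06). The glycolysis shares, 5.26% in each direction, were near those over all genes (4.47% higher and 3.54% lower). Gapdh has 4 near-identical copies. Gapdh was lost without batch B or F, and Aldoa without batch A or E.

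Chaperone and proteasome lists had 1 higher and 1 lower gene each. These are 3.45% and 3.23% in each direction, below the shares over all genes (4.47% higher and 3.54% lower). Hspa8, the constitutive heat shock protein that uncoats clathrin vesicles and refolds proteins, had 278, 538 and 627 CPM in the lowest, median and highest human mouse, and 157, 243 and 269 CPM in the macaque mice. The groups did not overlap (1.02 ± 0.13 SE, adjusted p = 1.27e-06), and 7 near-identical copies of its 3′ end exist. Hsp90aa1, another cytosolic chaperone, fell (-0.26 ± 0.06, 1047 to 1495 CPM in human and 1252 to 1667 CPM in macaque mice), and the other 27 of 29 chaperone genes did not pass. Psmd13, a lid subunit of the proteasome, had a median of 26.1 CPM in human and 11.1 CPM in macaque mice (1.24 ± 0.18), and 1 further proteasome gene of 31 was lower. It overlaps Sirt3 on the opposite strand. Of 20 large ubiquitin ligases, 5 were lower and 0 higher (median -0.06), among them Herc1 (135 to 166 CPM in human and 159 to 229 CPM in macaque mice, -0.30 ± 0.06) and Nedd4 (-0.18 ± 0.05). Without batch A or F neither Hsp90aa1 nor Nedd4 passed. With library totals as the scaling, 2 of the 20 ligases were lower and 1 higher.

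**Figure D3:**
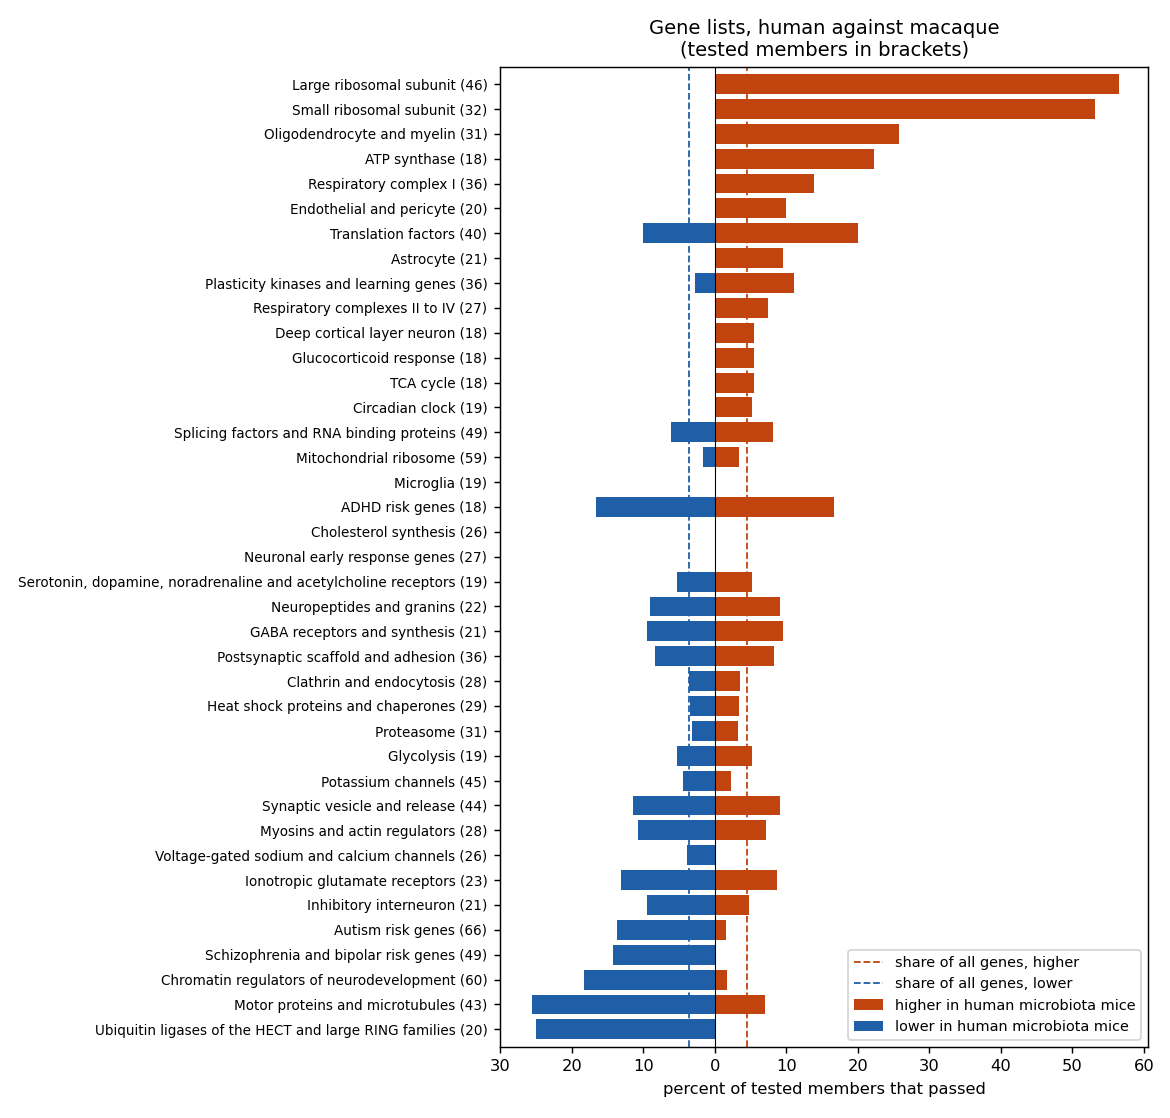
For each gene list with at least 18 tested members, bars give the percent of members that were higher (orange, to the right) and lower (blue, to the left) in human microbiota mice, and dashed lines the same over all genes (4.47% and 3.54%). The ribosomal subunits reach furthest to the right (56.5% and 53.1%), and motor and microtubule genes and large ubiquitin ligases furthest to the left (25.6% and 25%). The lists were chosen with earlier results of these data known.

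Among the lower genes of smallest p or without overlap between groups were several that encode nuclear proteins. Others of them, such as Sptbn1, Ppfia2 and Golgb1, do not, and the share of nuclear proteins was not tested. Atrx, a remodeller that keeps heterochromatin and telomeres in order, had 382, 441 and 497 CPM in the lowest, median and highest human mouse and 501, 564 and 613 CPM in the macaque mice. Every human mouse lay below every macaque mouse, at -0.33 ± 0.05 SE on the log2 scale (adjusted p = 3.40e-06). Atrx was also lower in human than in squirrel monkey mice, which averaged 546.7 ± 32.9 CPM (-0.29 ± 0.05 SE, adjusted p = 0.00533). Ankrd12, a nuclear ankyrin repeat protein, had 395 to 546 CPM in human and 555 to 732 CPM in macaque mice (-0.38 ± 0.05, adjusted p = 4.82e-06), and Bod1l, which protects stalled replication forks, 177 to 214 CPM and 219 to 271 CPM (-0.26 ± 0.05). Neither gene's groups overlapped. Psip1, a chromatin reader, fell by 0.35 on the log2 scale, and the chromatin kinase Tlk1 by 0.45. Spc24, a kinetochore subunit needed in dividing cells, had 58.4 to 88.6 CPM in human mice (median 71.8) and 86.6 to 121 CPM in macaque mice (median 98), a difference of -0.46 ± 0.08 SE (adjusted p = 6.68e-05). Its squirrel monkey mean was 105 ± 16.2 CPM, and human mice lay below it too (-0.56 ± 0.08 SE, adjusted p = 0.000678).

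A list of 60 chromatin and transcription regulators whose mutations disturb brain development had 11 lower (18.3%) and 1 higher members (1.67%). Its median log2 fold change was -0.08, and 46 values lay below 0. Ash1l, a histone methyltransferase, had 221 to 286 CPM in human and 255 to 334 CPM in macaque mice (-0.23 ± 0.05). Arid4b, a subunit of a histone deacetylase complex, fell by 0.26 on the log2 scale. Mef2c, a transcription factor of excitatory neurons, had 858 to 1492 CPM in human and 1189 to 1648 CPM in macaque mice (-0.33 ± 0.07). Smarcd3, a subunit of the BAF remodelling complex, had the largest change (-0.86 ± 0.19) but overlaps Chpf2 on the opposite strand. Human batches A and B differed more, with 11.4 ± 2.06 CPM in A and 26.4 ± 8.44 CPM in B (SD; A minus B -1.20 ± 0.25 SE, adjusted p = 0.0791), and without batch A it did not pass between donors (-0.55, adjusted p = 0.0743). The count of 11 was 7 with library totals as the scaling and 2 without batch F, where Smarcd3 and Arid4b did not pass. Ash1l did not pass without batch B. Genes of RNA processing were split, with 4 higher and 3 lower of 49. Fxr2, a paralogue of the fragile X protein, had a median of 50.5 CPM in human and 24.5 CPM in macaque mice (0.96 ± 0.13, adjusted p = 2.47e-06). Rbm25 and Srrm1, factors of splicing, fell by 0.23 and 0.24, and neither passed without batch B. Upf1, the helicase of nonsense-mediated decay, had 17.6 to 29.4 CPM in human and 28.8 to 51.6 CPM in macaque mice (-0.69 ± 0.11), and it overlaps Cers1 and Gdf1.

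**Figure D4:**
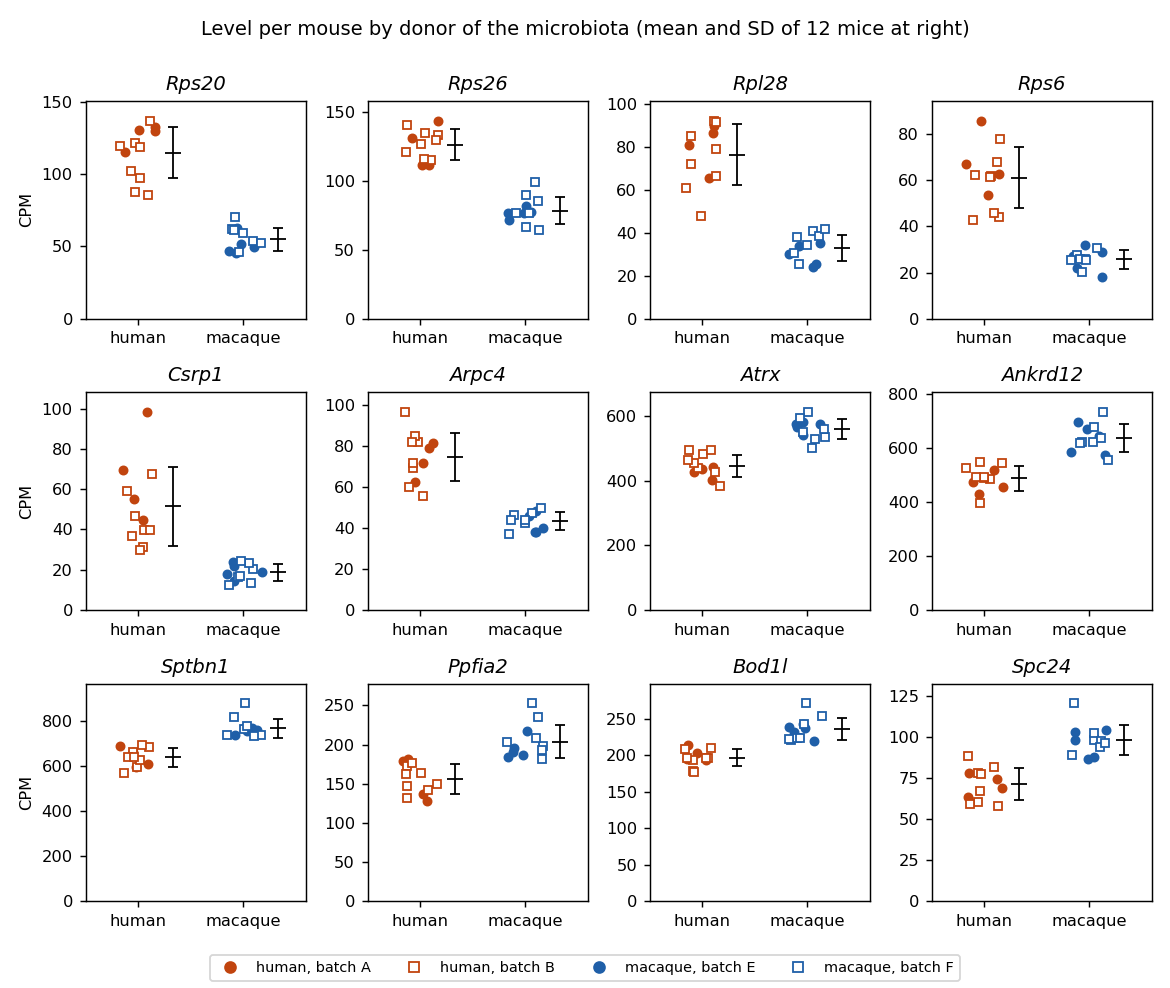
Levels in CPM of 12 genes in each human (orange, left) and macaque (blue, right) microbiota mouse, with filled circles for batches A and E, open squares for batches B and F, and the mean and SD of 12 mice beside each group. The first 6 genes are higher and the last 6 lower in human mice, and the groups overlap at Spc24 alone.

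Of 43 motor and microtubule genes, 11 were lower (25.6%) and 3 higher (6.98%), with a median log2 fold change of -0.12. This list also holds tubulins and a spectrin, and it was not compared with genes of like length or level. Sptbn1, the beta spectrin of the membrane skeleton, had 568 to 691 CPM in human mice (median 637) and 731 to 876 CPM in macaque mice (median 756), without overlap (-0.27 ± 0.04 SE, adjusted p = 2.44e-05). Kif1b, a kinesin that carries mitochondria and synaptic vesicle precursors, had 734 to 904 CPM in human and 855 to 1044 CPM in macaque mice (-0.23 ± 0.04). The tubulin Tuba4a rose by 0.39 ± 0.07, and Tubb4a, a major tubulin of myelinating cells, by 0.36 ± 0.08. The motor gene Dync1h1, of dynein, had 252 to 334 CPM in human and 223 to 285 CPM in macaque mice. Of 28 myosin and actin genes 3 were lower and 2 higher (median 0.04). The WAVE subunit Wasf1 (-0.28 ± 0.05), the nonmuscle myosin Myh10 (-0.27 ± 0.06) and the cargo myosin Myo5a (-0.24 ± 0.05) fell. Csrp1, a LIM protein that bundles actin, had 29.7, 45.6 and 98.3 CPM in the lowest, median and highest human mouse and 12.4, 18.2 and 24.1 CPM in the macaque mice (1.48 ± 0.19, adjusted p = 8.80e-07). Arpc4, a subunit of the Arp2/3 complex that branches actin, had 55.9 to 96.8 CPM in human and 37 to 49.6 CPM in macaque mice (0.79 ± 0.10). Neither gene's groups overlapped. Golgb1 (-0.40 ± 0.07) and Soga3 (-0.35 ± 0.05), a Golgi tether and a little studied protein, were among the lower genes of smallest p. The 11 lower motor and microtubule genes became 4 without batch A or E and 5 without F. Tubb4a did not pass without F, Myh10 without E or Myo5a without B.

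Synaptic genes moved in both directions, scaffolds of the excitatory synapse included. Dlg4, which encodes the postsynaptic scaffold PSD-95, had 151, 265 and 296 CPM in the lowest, median and highest human mouse and 132, 163 and 206 CPM in the macaque mice. In 11 of 12 human mice it lay above the macaque median (0.58 ± 0.09 SE, adjusted p = 3.28e-05). Dlgap2, a scaffold of the same density, fell instead, with 43.8 to 59 CPM in human and 55.2 to 79.8 CPM in macaque mice (-0.41 ± 0.07), and was also lower than in squirrel monkey mice (-0.36 ± 0.08 SE, adjusted p = 0.0445). The list of 36 scaffold and adhesion genes had 3 higher and 3 lower (8.33% each), and 30 of its 36 fold changes were below 0 (median -0.09). On the presynaptic side, 4 of 44 vesicle and release genes were higher (9.09%) and 5 lower (11.4%). Ppfia2, the active zone protein liprin alpha 2, had 127 to 182 CPM in human and 182 to 253 CPM in macaque mice, and its groups met without overlapping (-0.39 ± 0.06). Nsf, the ATPase that takes SNARE complexes apart, fell by 0.22, and Syn2, a synapsin, by 0.29. Rab3b, a vesicle GTPase, rose (0.39 ± 0.09). Ap2a1, a subunit of the clathrin adaptor, fell to a median of 65.9 CPM in human mice, against 116 CPM in macaque mice (-0.80 ± 0.14), but is 1 of the 3 genes that differed between the human batches, with 41.8 ± 4.72 CPM in A and 77.7 ± 18.6 CPM in B (SD). It also overlaps Fuz. Without batch E neither Syn2 nor Rab3b passed, and without batch F Dlgap2 did not.

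Syn1, the gene for the vesicle protein synapsin I, stood apart from the other synaptic genes in that single mice were either high or near 0. In 6 human mice it had 288.9 to 415 CPM and in the other 6 it had 1.86 to 11.35 CPM, whereas all macaque mice had 1.42 to 5.78 CPM. The high mice came from both human batches, 2 of 4 in A and 4 of 8 in B. Of the 8 squirrel monkey mice, 7 had 268.8 to 350.5 CPM and 1 had 7.985 CPM. The fitted log2 fold change of 5.79 ± 0.86 SE (adjusted p = 1.59e-05) describes neither kind of human mouse, and it did not pass with limma voom (adjusted p = 0.243) or with batch as a correlation (adjusted p = 0.308). Syn1 overlaps Timp1 and Araf on the opposite strand, so its value is uncertain.

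Receptors, channels and signalling genes gave a few large values among many that did not pass. The cannabinoid receptor Cnr1, which sits on inhibitory and excitatory terminals, had 106 to 171 CPM in human mice (median 128) and 144 to 229 CPM in macaque mice (median 172), a difference of -0.42 ± 0.07 SE (adjusted p = 0.000176). The muscarinic receptor Chrm3 rose (0.81 ± 0.17), and 17 of 19 monoamine, acetylcholine and cannabinoid receptor genes did not pass. Of 23 ionotropic glutamate receptor genes 2 were higher and 3 lower, among them the kainate receptor Grik5 (-0.30 ± 0.07) and the AMPA receptor auxiliary subunit Cacng8 (-0.39 ± 0.11). None of 10 metabotropic glutamate receptor genes passed in edgeR, DESeq2 or limma voom (3 at an unadjusted p under 0.05). The smallest p in that list belonged to Grm7, with a median of 39.7 CPM in human and 45.1 CPM in macaque mice (adjusted p = 0.0707). Of 21 GABA genes 2 were higher and 2 lower. The GABA transporter Slc6a11, known from astrocytes, rose (0.59 ± 0.10, 42.7 to 78.4 CPM in human and 28.8 to 50.9 CPM in macaque mice), and Gabbr2, a subunit of the GABA-B receptor, fell (-0.40 ± 0.10). The potassium channels Kcna6 (0.69 ± 0.12) and Kcnt2 (-0.47 ± 0.10) moved in opposite directions, and 1 further potassium channel gene of 45 was lower. The potassium channel shares, 2.22% higher and 4.44% lower, were near those over all genes (4.47% and 3.54%). Among cation channels, Trpm2 rose (0.42 ± 0.10) and Trpc5 fell (-0.76 ± 0.18). Scn7a, a sodium channel that senses sodium in glia, fell to a median of 4.55 CPM in human mice, against 18.5 CPM in macaque mice (-1.35 ± 0.35). Without batch F, the calls of Chrm3, Grik5, Cacng8, Slc6a11, Gabbr2, Trpc5 and Scn7a were lost, and without batch A or E that of Trpm2.

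Of 36 plasticity genes 4 were higher and 1 lower, while 26 of their fold changes were below 0 (median -0.10). Of 22 neuropeptide and granin genes 2 were higher and 2 lower, and 15 fold changes were below 0 (median -0.13). Limk1, which regulates actin in spines, had 23.6 to 51.6 CPM in human mice (median 45.5) and 17.6 to 39.6 CPM in macaque mice (median 25.2), a difference of 0.65 ± 0.13 SE (adjusted p = 0.000736). Ppp3r1, the regulatory subunit of calcineurin, rose (0.38 ± 0.09), and the MAP kinase kinase Map2k1 fell (-0.29 ± 0.07). Stk32c, a kinase of little known function, had the smallest p outside the ribosome, with 38.9, 99.6 and 134 CPM in the lowest, median and highest human mouse and 27.3, 42.5 and 53 CPM in macaque mice (1.18 ± 0.13, adjusted p = 1.25e-07). It overlaps Lrrc27. Among peptides, Nxph3, a secreted ligand of neurexins, rose (1.32 ± 0.26, median 16.5 CPM in human and 5.39 CPM in macaque mice). Cck, a peptide of interneurons and pyramidal cells, fell (-0.29 ± 0.08), as did Pcsk1n, which encodes the convertase inhibitor proSAAS (-0.82 ± 0.15, 180 to 449 against 271 to 725 CPM). Human batch A had 180 to 239 CPM of Pcsk1n and batch B 218 to 449 CPM. Nell2, a secreted ligand of Robo3 in axon guidance, fell by 0.35. Penk, the enkephalin precursor, passed at 1.03 ± 0.30 and did not without human replicate 7 (adjusted p = 0.0754). That mouse had 210 CPM of Penk, and 888 CPM in the sum of 8 striatal genes, against 233 to 320 CPM in the other human and 193 to 357 CPM in macaque mice. Without batch F, Nxph3, Cck and Ppp3r1 were lost, and without batch A Map2k1 was.

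Of 27 activity-induced early response genes 0 passed in edgeR, DESeq2 or limma voom, and 5 had an unadjusted p under 0.05 in edgeR. Nr4a2 had the smallest p, with a median of 26.9 CPM in human and 18.4 CPM in macaque mice (0.54 ± 0.18, adjusted p = 0.0626). Of 26 cholesterol synthesis genes 0 passed in the same tools (6 at an unadjusted p under 0.05). Risk genes from human genetics overlap the lists above and were mostly at small differences. Of 66 autism risk genes, 9 were lower (13.6%) and 1 higher (1.52%), with a median of -0.07. Of 49 schizophrenia and bipolar risk genes 7 were lower (14.3%) and 0 higher, with a median of -0.10. Taok1, a kinase of microtubule control (-0.24 ± 0.05), Rb1cc1, which starts autophagy (-0.30 ± 0.06), and Akap11, an anchor of protein kinase A (-0.25 ± 0.06), are examples. After removal of the dependence on length and GC content described below, 4 members of each list were lower, and Taok1 and Akap11 did not pass. Rb1cc1 did not pass without batch B. Of 18 ADHD risk genes 3 were higher and 3 lower, among them the demethylase Kdm4a (0.63 ± 0.13) and the adhesion receptor Adgrl3 (-0.38 ± 0.10). Neither passed without batch B or F.

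Transcript length differed between higher and lower genes, but the sets overlapped (quartiles 1922 to 4228 bases for higher and 3225.25 to 6892.5 bases for lower genes). The median length was 3038 bases for higher genes, 4850.5 for lower genes and 3662 for all genes, by GENCODE M21. Of the 3161 shortest genes 202 were higher and 63 lower, and of the 3160 longest 82 were higher and 203 lower. Without ribosomal protein genes the shortest still had 164 higher and 63 lower. Median GC content was 52.0% for higher genes, 45.5% for lower genes and 49.0% for all genes. Level also differed, since the 3163 genes of highest level held 150 higher and 268 lower genes and the 3163 of lowest level 142 higher and 21 lower. Motor and microtubule genes, large ubiquitin ligases and chromatin regulators were not compared with genes of like length or level. The part of length and level in their shares of lower members was not tested. In an alternative added with the results known, the dependence of the fold change on length and GC content was taken out, and 484 genes were higher and 523 lower, 779 of them among the 1013, and 39 ribosomal protein genes were higher.

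**Figure D5:**
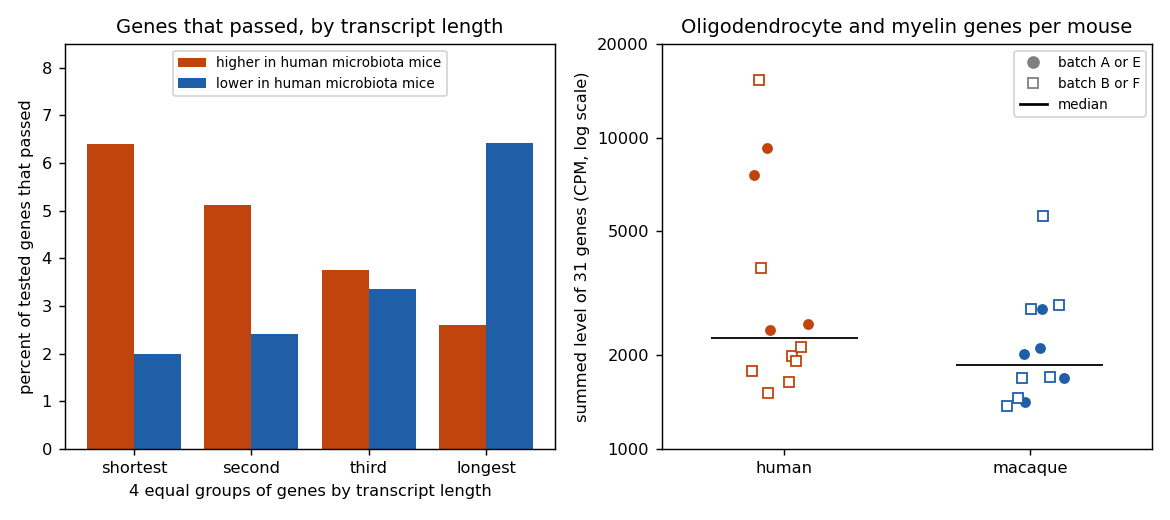
The left plot gives, for 4 equal groups of the tested genes by transcript length, the percent higher (orange) and lower (blue) in human microbiota mice, which cross between the shortest (6.39% and 1.99%) and the longest (2.59% and 6.42%). The right plot gives the summed CPM of 31 oligodendrocyte and myelin genes in each mouse on a logarithmic axis, human mice left of macaque mice, with the group median as a line and 3 human mice above all macaque mice.

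Markers of the labelled tissue were present in every mouse, with 944 to 1857 CPM in human mice (median 1490) and 1399 to 2005 CPM in macaque mice (median 1705) over 16 upper layer neuron genes. Over 18 deep layer genes the sums were 1715 to 2101 CPM in human mice (median 1853) and 1593 to 2271 CPM in macaque mice (median 1877). Their part in the differences of neuronal genes was not tested. In bulk tissue, fewer cells of a type and less RNA per cell cannot be told apart. Of 16 upper layer genes 1 passed, Lamp5 (0.49 ± 0.13), which was lost without batch B, E or F. Oligodendrocyte and myelin genes were the most variable cell type list. All 31 fold changes were above 0 (median 0.90), and 8 were higher, among them Gjc3, a gap junction protein (0.81 ± 0.22, 18 to 94.2 CPM in human and 17.3 to 56.5 CPM in macaque mice), and the protease Adamts4 (1.37 ± 0.36). Their sum was 1514 to 15267 CPM in human mice (median 2268) and 1374 to 5600 CPM in macaque mice (median 1854). Human replicates 1, 4 and 12, at 9238, 7577 and 15267 CPM, lay above all macaque mice, and without these 3 mice, without batch A, without batch E or without batch F the count of 8 became 0. The count was 2 to 5 without human replicate 1, 4, 7 or 12 or macaque replicate 1, 3, 4, 5, 7, 8, 9 or 12, and 13 to 20 without human replicate 6, 8, 9, 10 or 11 or macaque replicate 6. Replicates 1, 4 and 12 also had the lowest human upper layer sums, at 1067, 1106 and 944 CPM. The part of this pairing in the differences between donors was not tested. Ribosomal protein genes without the same 3 human mice had 40 higher.

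The summed marker levels of the other cell types named here overlapped between human and macaque mice. Astrocyte genes summed to 9590 to 14017 CPM in human and 9609 to 14382 CPM in macaque mice (medians 11264 in human and 11075 in macaque mice), with 2 of 21 higher, one of them Htra1, a secreted protease (0.56 ± 0.11) that did not pass without batch F. Microglia genes summed to 1717 to 2764 CPM in human mice (median 2202) and 1628 to 2532 CPM in macaque mice (median 2010), and 0 of 19 passed in edgeR (4 at an unadjusted p under 0.05) or DESeq2, and 1 in limma voom. P2ry12, the purine receptor of resting microglia, had a median of 34 CPM in human and 41.5 CPM in macaque mice (adjusted p = 0.0582). Endothelial genes had 2 of 20 higher, with median sums of 1104 CPM in human and 995 CPM in macaque mice. Genes of meninges and fibroblasts had 1 of 11 higher, with median sums of 781 CPM in human and 618 CPM in macaque mice. Haemoglobin and other blood cell genes summed to a median of 118 CPM in human and 90.7 CPM in macaque mice, and 0 of 4 passed in edgeR (1 at an unadjusted p under 0.05), DESeq2 or limma voom. Inhibitory interneuron genes had 1 higher and 2 lower of 21, at median sums of 2728 CPM in human and 3067 CPM in macaque mice.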

How the data were processed

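RNA from the frontal cortex was sequenced with TagSeq, a method that reads near the 3′ end of transcripts, per the labels' protocols. The authors deposited raw counts per Ensembl gene (23958 rows, 35 columns), and 3 columns that matched no sample used here entered no step. The build is GRCm39, per the submitters' processing notes. No source used here gives the aligner, the annotation or whether counting used strand, so counts of genes that overlap on opposite strands are uncertain. Gene names were missing for 76 rows (0.031% of counts).

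Genes were filtered with filterByExpr (minimum count 10, minimum total 15), scaled with TMM and tested with the edgeR 4.0.16 quasi-likelihood test in R 4.3.3. The fit held all 32 mice with the donor group as its only term, with Benjamini-Hochberg adjustment over 12651 genes and a threshold of 0.05. A second fit with 6 batch levels compared A with B and E with F. Alternatives were DESeq2 1.42.0, limma 3.58.1 voom, other scalings and filters, batch terms, and mice or batches left out.

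The members and the 49 gene lists were chosen with earlier results of these data known. The rule for named genes took, in each direction, the 12 genes of smallest p and the 8 of largest fold (mean of at least 5 CPM, batches apart), up to 4 passing members of each list or, where none passed, up to 2, and genes whose groups did not overlap. It gave 150 genes, 131 of which passed. Of these, 27 lost the call without 1 mouse, and 26 of them are counted in their lists but not described singly. Some other genes given by the rule are not reported here. Rps9 and Rpl5 were named for their start sequences, after their values were seen. Transcript length, GC content, overlaps and 3′ copies (at least 100 of the last 300 bases at 95% identity, BLAST 2.17.0) came from GENCODE M21, whose build is not that of the counts, and start sequences from RefSeq.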

Additional observations from a re-analysis of the deposited data

How the results depend on the processing

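The human against macaque count of 1013 genes (565 higher, 448 lower) ranged from 772 to 1153 (442 to 625 higher, 325 to 534 lower) when single mice were left out. It was 506 (355 higher, 151 lower) with counts summed per batch, 576 (322 and 254) with library total as a covariate, and 122 (116 and 6) in a test against a fold of 1.2. It was 479 (302 and 177) without batch A, 392 (242 and 150) without batch E and 336 (197 and 139) without batch F. Of the 506 and 576 genes, 405 and 521 were among the 1013, and of those without batch A, E or F, 440, 376 and 306. The cause was not tested. The other alternatives, DESeq2, limma voom, other filters, DESeq2 size factors, library totals, 24 mice alone, batch as a correlation or as fixed levels, and leaving out batch B, gave counts within 1.5 times the main one. A similar count is not the same set of genes: without batch B, 1053 genes passed and 593 of them were among the 1013. The 3 genes between batches A and B became 0 with library totals. No paired analysis was possible because the replicate numbers were given in accession order and the labels carry none.

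Of 95 passing genes named above, 22 no longer passed with counts summed per batch, 10 with library total as a covariate, 16, 13, 17 and 30 without batch A, B, E and F, and 61 in the test against a fold of 1.2. None of the 95 changed direction under any alternative run. This was close to fixed by their choice. They passed in the main fit, and 26 of the 27 rule genes that lost the call without 1 mouse are not described. The counts for the 95 therefore do not measure the stability of all passing genes. Ribosomal protein genes higher numbered 38 to 45 without single mice, 30 to 42 without single batches and 27 in the test against a fold of 1.2, in place of 43. At 1035036 to 2089308 counts per mouse, differences of rare transcripts below a few CPM are not detectable.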

Other observations

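Some of the larger differences lay at genes of no list above or of lists not yet described. Cd200r3, a member of the CD200 receptor family known from mast cells and basophils, had a median of 8.06 CPM in human and 2.60 CPM in macaque microbiota mice (log2 fold change 1.52 ± 0.29 SE, adjusted p = 0.000482) and did not pass without batch F. Olfr1419, of the olfactory receptor family, fell to a median of 15.2 CPM in human mice, against 37.0 CPM in macaque mice (-1.10 ± 0.20 SE, adjusted p = 0.000196). Ubqln2, a shuttle between ubiquitinated proteins and the proteasome, had 159 to 194 CPM in human and 183 to 226 CPM in macaque mice (-0.26 ± 0.04 SE, adjusted p = 0.000117). Of 19 clock genes 1 was higher and 0 lower, of 18 glucocorticoid-responsive genes 1 and 0, and of 15 interferon and MHC class I genes 2 and 0. The median log2 fold changes of these lists were -0.05, 0.14 and 0.14. For the clock and glucocorticoid lists the shares higher, 5.26% and 5.56%, were near the 4.47% over all genes.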
